A study of Mus musculus with 16 samples.

Results

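The genes described here make, sense and remove prostaglandins. They are 10 members chosen by name out of 55359 gene identifiers counted in each library: Ptgs1, Ptgs2, Ptges, Ptges2, Ptger1, Ptger2, Ptger3, Ptger4, Ptgfr and Hpgd. All 10 were found by symbol, and all 10 passed the filter on low counts in every comparison below. RNA was sequenced from whole ovary and whole kidney of wild-type CBAF1 females aged 21 days, in 16 libraries. The 4 groups held 4 libraries each: ovary with PT-2385, ovary with vehicle, kidney with PT-2385 and kidney with vehicle. PT-2385, a small molecule inhibitor that prevents the transcription factor HIF-2α, the product of Epas1, from dimerising with ARNT, was injected into the peritoneum at 7.5 mg/kg once per 12 h over 4 days. The vehicle groups had 5% DMSO in saline on the same schedule. All groups, controls included, also received 5 IU of PMSG, which drives follicles to grow, and 5 IU of hCG, which stands in for the ovulatory LH surge; tissue was taken 13 h after hCG. The design text and sample labels give 48 h of PMSG before hCG, while the wording of the treatment protocol leaves that interval unclear. There was thus no group without hormones. Whether replicate libraries represent different mice, or both organs the same mice, is not stated in the labels. The p-values therefore reflect only how these samples spread.

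Prostaglandins are lipid signals made on demand from arachidonic acid. The cyclo-oxygenases, encoded by Ptgs1 and Ptgs2, carry out the committed step, and terminal synthases such as those encoded by Ptges and Ptges2 turn the product into prostaglandin E2, which acts on the receptors encoded by Ptger1 to Ptger4. Prostaglandin F2α acts on the receptor encoded by Ptgfr, and the dehydrogenase encoded by Hpgd starts the breakdown of both. In the ovary, the LH surge induces Ptgs2 in granulosa and cumulus cells, and mice without Ptgs2 or Ptger2 ovulate poorly and form a poor cumulus matrix. In the kidney, prostaglandin E2 adjusts blood flow, renin release and the handling of salt and water.

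The promoters of Ptgs2 and Ptges are shown because these are an ovulation-induced gene of the pathway and the member whose ovarian groups did not overlap under PT-2385. Sequences are the 250 bases before the annotated gene start in RefSeq on GRCm38.p6, given 5′ to 3′ on the gene's strand, and 9 of the 10 members had one there. Capitals mark GCGTG, 1 of the forms of the core sequence that hypoxia-inducible factors bind, and, in Ptgs2 only, TTGCGCAA, a palindrome that C/EBP factors bind. The Ptgs2 window lies at chr1:150099781-150100030 on the plus strand and the Ptges window at chr2:30903298-30903547 on the minus strand.
Ptgs2: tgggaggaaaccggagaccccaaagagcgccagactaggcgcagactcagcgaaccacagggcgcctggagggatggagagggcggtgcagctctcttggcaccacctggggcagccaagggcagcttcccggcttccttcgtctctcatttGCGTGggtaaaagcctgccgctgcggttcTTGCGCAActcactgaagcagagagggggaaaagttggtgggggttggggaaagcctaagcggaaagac
Ptges: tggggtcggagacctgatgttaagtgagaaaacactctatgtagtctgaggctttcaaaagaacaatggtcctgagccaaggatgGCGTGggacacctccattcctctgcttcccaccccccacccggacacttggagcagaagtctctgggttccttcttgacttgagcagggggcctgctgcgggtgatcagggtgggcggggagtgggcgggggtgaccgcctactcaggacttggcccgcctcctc

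Both strands were searched for ACGTG and GCGTG. In Ptgs2 the GCGTG match ran from base −98 to −94 relative to the start, and in Ptges from −165 to −161. Of the 9 windows, 5 held ACGTG or GCGTG (Ptgs2, Ptges, Ptges2, Ptger3 and Hpgd), against 38.6% of 32851 RefSeq promoter windows of the same length. Ptges2 and Ptger3 held both, and the ACGTG matches of Ptges2 at −77 to −72 lay inside the E-box CACGTG. TTGCGCAA was added to the search after the Ptgs2 window had been read; it stood at −69 to −62 there, in no other member and in 0.164% of all windows. These matches describe letters in a window and say nothing of binding in these tissues. For Hpgd and Ptger2, the bases tested just after the window matched no GENCODE M21 transcript of the gene. Part of the Ptgfr window matched a transcript of its own gene, so the starts of these members are less certain.

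Gene positions are those of the count files, on GRCm39. Ptgs2 lies on chromosome 1 (149975782 to 149983978, plus strand), and Ptgs1 (36120438 to 36142284, plus), Ptges (30779483 to 30793309, minus) and Ptges2 (32285908 to 32295784, plus) all lie on chromosome 2. Ptgfr and Ptger3 lie on chromosome 3 (151502139 to 151543267, minus, and 157272529 to 157351525, plus), Ptger1 and Hpgd on chromosome 8 (84393307 to 84399382 and 56747620 to 56774078, both plus). Ptger2 lies on chromosome 14 (45225652 to 45241277, plus) and Ptger4 on chromosome 15 (5262880 to 5273668, minus). The recorded counting command has no strand option, so reads from exon bases that a gene shares with another gene model cannot be told apart. These made up 63% of the exon bases of Ptger1, whose values are therefore uncertain, and 5.16% or less for each other member.

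Assigned read pairs ran from 12.7 to 43.3 M per library (1 M is 1e+06), and both of these extremes were PT-2385 kidneys (replicates 2 and 3). Kidney PT-2385 replicate 3 also carries another flow-cell code and was kept in the group of its label. The part of sequencing run in its values was not tested. The granulosa cell factor Foxl2 and the oocyte coat protein Zp3 had 0 counts in every kidney library. Kap, a proximal tubule protein, reached at most 0.215 CPM in PT-2385 ovaries, while ovary vehicle replicate 1 had 30.2 CPM; PT-2385 and vehicle kidneys had at least 12099 and 12663 CPM. CPM are counts per 1e+06 assigned pairs, scaled with TMM over all 16 libraries. Epas1 itself had log2 fold changes for PT-2385 over vehicle of −0.05 in ovary and 0.01 in kidney, with adjusted p of 0.818 and 0.893 (edgeR), but the drug target is the protein and the block itself was not measured.

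Levels of different members were compared as TPM, which divides by the exon length in the files. In PT-2385 ovaries, Ptgs1 stood highest (126 ± 11.5 TPM), followed by Ptgs2 (124 ± 38.0) and Ptgfr (66.4 ± 18.0; mean ± SD, n = 4 here and throughout). In vehicle ovaries, Ptgfr stood highest (149 ± 72.6 TPM), followed by Ptgs1 (104 ± 30.1) and Ptgs2 (69.4 ± 23.6). Within either group, the ranges of neighbours among these top 3 overlapped; in PT-2385 ovaries, Ptgs1 (lowest library 109.9 TPM) lay clear above Ptgfr (highest library 90.9 TPM). Ptges came next in both, with 38.0 ± 4.20 TPM in PT-2385 ovaries and 49.4 ± 2.33 in vehicle ovaries, then Hpgd with 22.04 ± 7.94 and 34.1 ± 12.8 TPM, and Ptges2 with 13.1 ± 0.249 and 12.8 ± 0.456 TPM. The ranges of Ptges and Hpgd overlapped in PT-2385 ovaries, and those of Ptgs2 and Ptges in vehicle ovaries.

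The prostaglandin E2 receptors were the lowest members in ovary. Ptger2, Ptger3 and Ptger4 averaged between 4.23 and 5.41 TPM in PT-2385 ovaries and between 4.42 and 5.01 TPM in vehicle ovaries. Ptger1 stood below all of them, at 0.499 ± 0.0721 TPM in PT-2385 ovaries and 0.707 ± 0.333 TPM in vehicle ovaries. The range of Ptger1 lay clear of the next receptor in both groups, with the limit on its counting given above.

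Kidney had another order. Ptger3 led with 42.7 ± 2.45 TPM in PT-2385 kidneys and 43.8 ± 0.459 TPM in vehicle kidneys, clear of the next member in both groups. Hpgd and Ptges came next: Hpgd had 24.4 ± 1.16 TPM in PT-2385 kidneys and 31.1 ± 4.68 TPM in vehicle kidneys, and Ptges had 28.8 ± 2.69 and 26.7 ± 1.88 TPM. The ranges of these 2 genes overlapped in both groups. Ptgs2 ranked ninth of the 10, at 2.15 ± 0.697 TPM in PT-2385 kidneys and 2.72 ± 1.07 TPM in vehicle kidneys. Ptger2 was the lowest, at 0.431 ± 0.103 and 0.394 ± 0.191 TPM, from only 8 to 33 read pairs per kidney library.

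**Figure D1:**
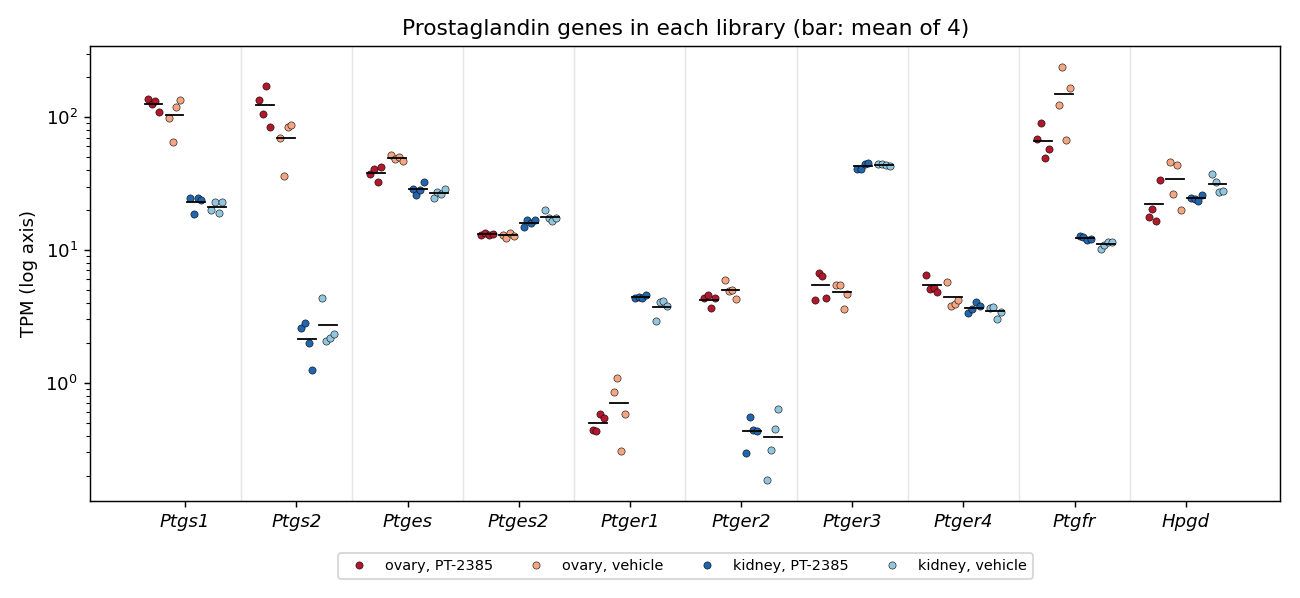
TPM (log axis) of the 10 members in each library; each point is a library and each bar the mean of 4, in the order ovary with PT-2385, ovary with vehicle, kidney with PT-2385, kidney with vehicle. Ptgs2 and Ptger2 sit far higher in both ovary groups than in the kidney groups, and Ptger3 and Ptger1 far lower.

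Vehicle ovary was then compared with vehicle kidney. RNA was purified on columns from ovary and by Trizol from kidney, so organ and isolation cannot be told apart, and in whole organs fewer cells of a type and less RNA per cell cannot be told apart either. By edgeR's quasi-likelihood test, adjusted by Benjamini-Hochberg over 18923 genes and called under 0.05, 8 of the 10 members differed, 5 higher and 3 lower in ovary; 81.6% of all genes tested were called, 40.9% higher and 40.7% lower. The share called among the members was therefore close to that of all genes.

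Among the synthesis genes, Ptgs2 was 18.0-fold higher in vehicle ovary, with 104, 56.1, 132 and 138 CPM in the 4 ovary libraries against 9.26, 4.54, 4.95 and 5.24 CPM in the 4 kidney libraries (log2 fold change 4.17, SE 0.365, adjusted p = 8.88e-06, edgeR). Every ovary library lay above every kidney library. Ptgs1 was 3.46-fold higher (log2 fold change 1.79, SE 0.208) and Ptges 1.29-fold higher (0.37, SE 0.0754). Ptges2, a membrane-associated synthase, was lower, at 22.2 ± 0.966 CPM in vehicle ovary and 44.2 ± 2.34 CPM in vehicle kidney (log2 fold change −0.98).

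The receptors split by organ. Ptgfr was 9.48-fold and Ptger2 8.80-fold higher in vehicle ovary (log2 fold changes 3.24 and 3.14, edgeR adjusted p = 5.81e-05 and 1.09e-07). Ptger3, which couples mainly to inhibition of cyclic AMP, went the other way, with 5.95, 6.20, 4.11 and 5.33 CPM in the ovary libraries against 68.7, 70.4, 73.2 and 70.8 CPM in the kidney libraries (log2 fold change −3.70, SE 0.110, adjusted p = 3.18e-12, edgeR). Ptger1, a calcium-coupled receptor, had a log2 fold change of −2.91, with the limit on its counting given above. Ptger4 (−0.16, 95% interval −0.51 to 0.19) and Hpgd (−0.38, interval −0.97 to 0.21) did not pass the test (edgeR adjusted p = 0.310 and 0.170). Their direction depended on the measure. As TPM, Ptger4 averaged 4.42 ± 0.906 in vehicle ovary and 3.46 ± 0.323 in vehicle kidney, and Hpgd 34.1 ± 12.8 and 31.1 ± 4.68.

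The next comparison asked what PT-2385 did to these genes in the ovary at ovulation. None of the 10 members passed the edgeR test across 18125 genes, of which 0.0497% were called, 9 in all. At an unadjusted p under 0.05 there were 3 members (Ptges, Ptgfr and Ptgs2), beside 13.2% of all genes tested. DESeq2 called 1 member, Ptges, beside 1.79% of all genes, and limma-voom called 0, beside 0.0221%. Of the 10 log2 fold changes, 5 were positive and 5 negative with a median of −0.07; the median over all genes tested was −0.003.

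Ptges, which encodes the inducible microsomal prostaglandin E synthase, had 49.7, 52.1, 42.6 and 54.1 CPM in PT-2385 ovaries, against 64.2, 61.1, 64.8 and 60.4 CPM in vehicle ovaries. All 4 PT-2385 ovaries lay below all 4 vehicle ovaries, the 1 member of 10 whose groups did not overlap (6.88% of all genes tested, 3.76% with PT-2385 lower). The log2 fold change was −0.34 (SE 0.0738, 95% interval −0.52 to −0.16), and the adjusted p of 0.107 (edgeR) missed the threshold. It passed with DESeq2 (adjusted p = 0.011), without the filter on low counts (0.00726), in one fit of all 16 libraries (0.0346) and, with edgeR, without ovary vehicle replicate 3 (0.0294). Over all settings tried, its log2 fold change ran from −0.39 to −0.26 and its adjusted p from 0.00726 to 0.415.

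Ptgs2 had 218, 166, 276 and 132 CPM in PT-2385 ovaries, against 104, 56.1, 132 and 138 CPM in vehicle ovaries. PT-2385 replicates 1, 2 and 3 lay above every vehicle ovary, while replicate 4 fell inside the vehicle range. The log2 fold change was 0.88 (SE 0.328, 95% interval 0.07 to 1.68), with an adjusted p of 0.332 (edgeR). Ptgs1, the constitutive cyclo-oxygenase, had 143, 128, 136 and 112 CPM in PT-2385 ovaries, against 95.9, 64.7, 120.0 and 136 CPM in vehicle ovaries, and the groups overlapped (log2 fold change 0.31, interval −0.17 to 0.80). Vehicle replicate 2 was the lowest ovary for both cyclo-oxygenases.

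Ptgfr had 168, 215, 119 and 137 CPM in PT-2385 ovaries, against 280.5, 560.3, 158 and 389 CPM in vehicle ovaries. Vehicle replicate 3, at 158 CPM, lay within the PT-2385 range, and the other vehicle libraries lay above it. The log2 fold change of −1.13 was the furthest from 0 of the 10 in ovary, but its SE was 0.391, the interval ran from −2.09 to −0.17 and the adjusted p was 0.304 (edgeR). Only 0.436% of all genes tested had a larger absolute log2 fold change.

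No receptor for prostaglandin E2 passed the test in ovary. Ptger4, which like Ptger2 raises cyclic AMP, had 7.93, 5.98, 6.24 and 5.72 CPM in PT-2385 ovaries, against 6.46, 4.37, 4.62 and 4.96 CPM in vehicle ovaries (log2 fold change 0.33, interval −0.04 to 0.70). Ptger2, the receptor needed for cumulus expansion in mice, averaged 5.59 ± 0.509 CPM in PT-2385 ovaries and 6.41 ± 0.769 CPM in vehicle ovaries (−0.20, interval −0.51 to 0.10). Ptger3 and Ptger1 had log2 fold changes of 0.22 and −0.45, and Ptger1 rested on 14 to 59 read pairs per ovary library. Adjusted p of these 4 receptors lay between 0.379 and 0.640 (edgeR).

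Hpgd had 10.9, 12.1, 9.96 and 20.1 CPM in PT-2385 ovaries, against 26.2, 15.6, 26.0 and 11.9 CPM in vehicle ovaries. Both groups were wide and overlapped: PT-2385 replicate 4 sat among the vehicle libraries, and vehicle replicate 4 among the PT-2385 libraries. The log2 fold change was −0.57 (SE 0.311, interval −1.34 to 0.19, adjusted p = 0.474, edgeR). For Ptges2 the log2 fold change was 0.07 (interval −0.09 to 0.23).

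**Figure D2:**
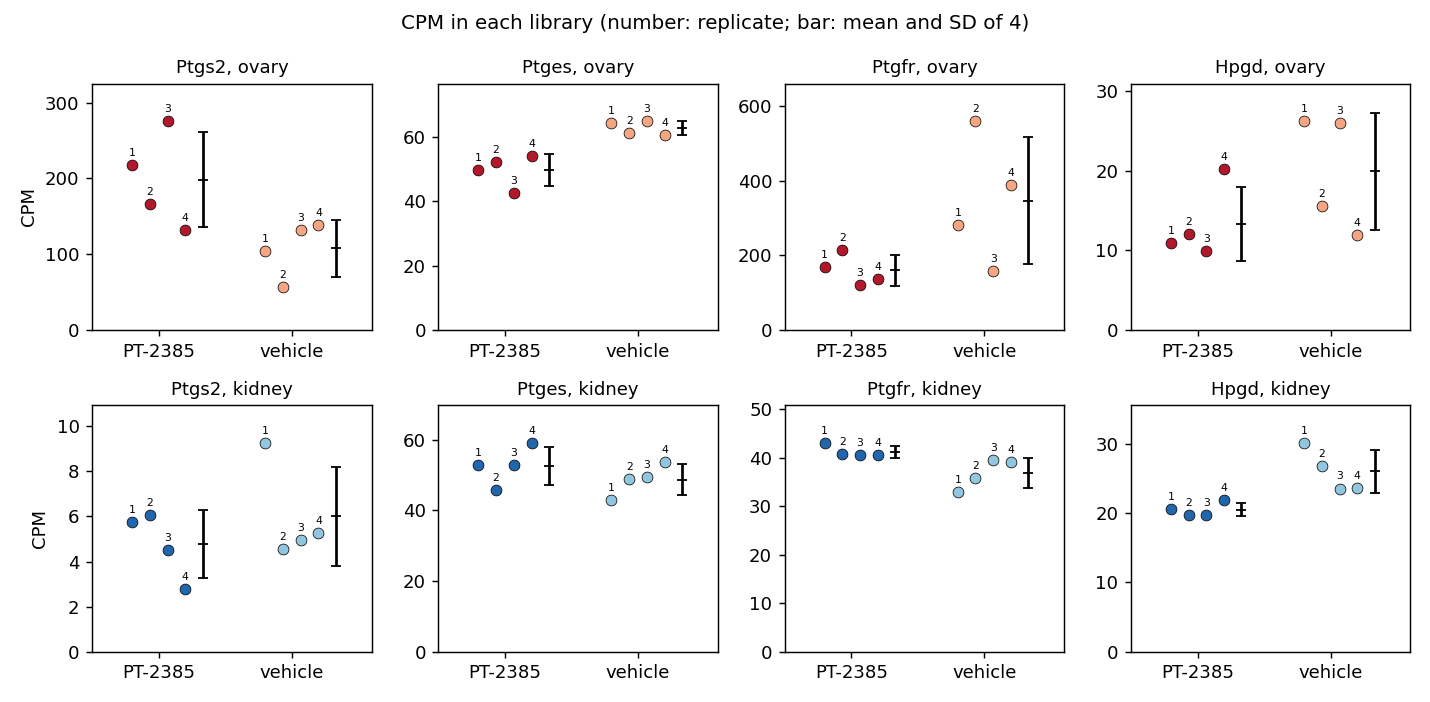
CPM of Ptgs2, Ptges, Ptgfr and Hpgd in each ovary library (top) and kidney library (bottom), PT-2385 left of vehicle; numbers are replicates and bars show mean and SD of 4. In ovary the Ptges groups do not overlap (42.6 to 54.1 against 60.4 to 64.8 CPM) while the other 3 genes overlap, and in kidney the Hpgd and Ptgfr groups do not.

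The makeup of the pathway within a library was described as shares of summed TPM, without a test. Ptgs2 made up 49.5, 45.6, 56.6 and 43.2% of cyclo-oxygenase TPM in PT-2385 ovaries, against 41.2, 35.8, 41.5 and 39.5% in vehicle ovaries. Ptges made up 74.2 ± 1.94% of Ptges plus Ptges2 in PT-2385 ovaries and 79.4 ± 0.647% in vehicle ovaries. Neither share overlapped between the ovary groups. Of single genes tested, 6.88% did not overlap in CPM, and how often other such ratios separate was not worked out. The Ptges share is not independent of the lower Ptges, since Ptges2 averaged 13.1 and 12.8 TPM. Ptgfr made up 80.5 ± 3.57% of the TPM of the 5 receptor genes in PT-2385 ovaries and 89.4 ± 4.63% in vehicle ovaries, with overlap. The ratio of Ptgs2 to Hpgd TPM was 7.55, 5.19, 10.5 and 2.49 in PT-2385 ovaries, against 1.51, 1.36, 1.92 and 4.40 in vehicle ovaries, also with overlap.

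**Figure D3:**
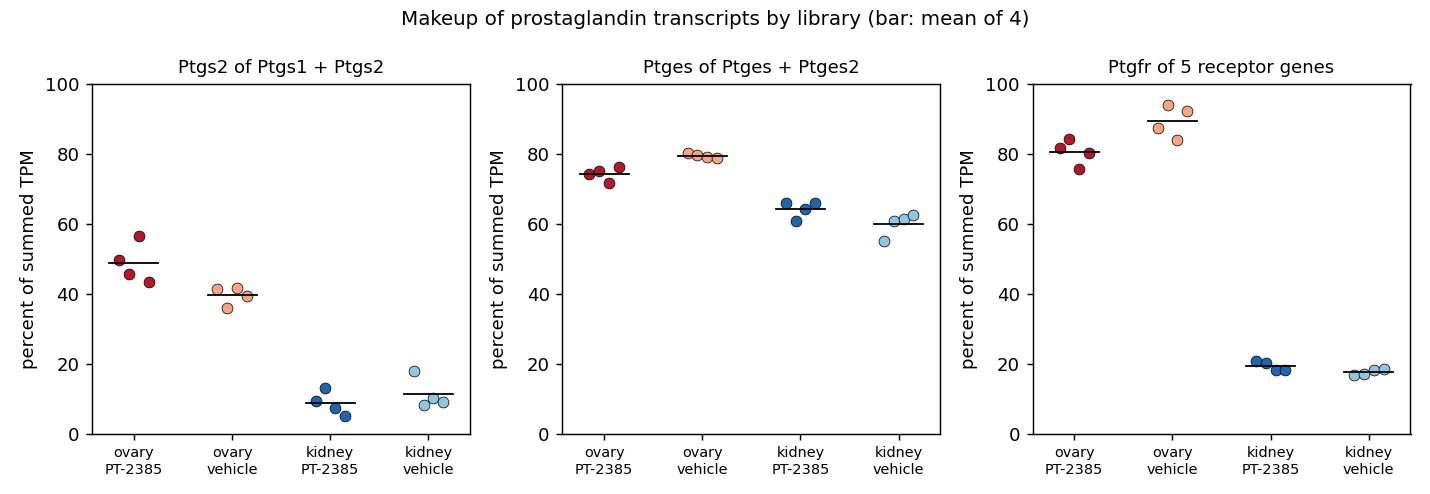
Share (percent) of summed TPM held by Ptgs2 among both cyclo-oxygenases, Ptges among both E synthases and Ptgfr among 5 receptor genes, per library, in the order ovary with PT-2385, ovary with vehicle, kidney with PT-2385, kidney with vehicle; bars are means of 4. The Ptgs2 share lies at 43.2 to 56.6% in PT-2385 ovaries, above the 35.8 to 41.5% of vehicle ovaries, and the Ptges share lies at 71.6 to 76.1%, below 78.8 to 80.2%. How often other such ratios separate was not worked out.

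Markers of ovarian cell types are given beside these values. Summed CPM of 5 cumulus matrix genes (Has2, Tnfaip6, Ptx3, Vcan and Areg) ran from 2123 to 2919 in PT-2385 ovaries and from 1220.3 to 2329.7 in vehicle ovaries; all 5 had positive log2 fold changes with a median of 0.69, and edgeR called none. Summed CPM of 5 luteal genes (Lhcgr, Star, Hsd3b1, Akr1c18 and Prlr) ran from 4595 to 5159 in PT-2385 ovaries and from 4789.8 to 8072 in vehicle ovaries; none was positive and none was called. Vehicle replicate 2, with the lowest Ptgs2 and the highest Ptgfr, also had the lowest cumulus matrix sum (1220.3) and the highest luteal sum (8072). Summed granulosa markers ran from 1885 to 2674 CPM in PT-2385 ovaries and from 1790.1 to 2150.4 CPM in vehicle ovaries, with 6 of 8 positive and none called. The 2 theca genes, Cyp17a1 and Insl3, summed to 15.8 to 34.2 CPM in PT-2385 ovaries and 10.8 to 19.2 CPM in vehicle ovaries, both positive with a median of 0.58 and neither called. No marker of these 4 lists was at 0 in any ovary. Such sums cannot tell more cells of a type from more RNA per cell. The part of cell makeup in the Ptgs2 and Ptgfr values was not tested.

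Genes with the most similar profile over the 8 ovary libraries were ranked by the root mean square difference of log2 CPM, each gene centred on its mean, among 12576 candidates. The 8 libraries come from 2 groups, and this likeness is a description with no test. For Ptgs2, whose own profile had a root mean square of 0.648, the 5 nearest were Tnfaip6 (difference 0.167, also in the cumulus matrix list), Kdm4dl, Il11, Dmbt1 and Tnfsf15 (0.220). For Ptgfr (0.729) they were Hsd17b7 (0.0664), Wnt10b, Tmem56, Tnfrsf9 and Trpm6 (0.156). For Hpgd (0.524) they were Cables1 (0.155), Pik3ip1, Tdrd5, Nos2 and Phex (0.187). None of these 15 genes was called under PT-2385 in ovary, beside 0.0497% of all genes tested. Their edgeR adjusted p ran from 0.207 (Kdm4dl) to 0.634 (Cables1). They were picked in these same libraries for likeness to members that were not called, so this is not a separate result.

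In kidney, the same comparison called 1 of the 10 members, Hpgd, which was lower, beside 5.53% of 17763 genes tested (3.7% called lower). Of the members, 6 had positive and 4 negative log2 fold changes with a median of 0.11 (0.007 over all genes). At an unadjusted p under 0.05 there were 4 (Hpgd, Ptgfr, Ptger1 and Ptges2), beside 23.1% of all genes, and the groups of those 4 did not overlap, beside 13.6% of all genes.

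Hpgd was lower in PT-2385 kidneys, with 20.6, 19.8, 19.8 and 21.9 CPM, against 30.2, 26.8, 23.6 and 23.7 CPM in vehicle kidneys. The highest PT-2385 kidney lay below the lowest vehicle kidney. The log2 fold change was −0.33 (SE 0.0798, 95% interval −0.52 to −0.13), or 0.796-fold (adjusted p = 0.0271, edgeR). The direction held in every setting tried, but the call was lost without vehicle replicate 2 (adjusted p = 0.083), without PT-2385 replicate 1 (0.0576), replicate 3 (0.11) or replicate 4 (0.0553), and in one fit of all 16 libraries (0.535); over all settings the adjusted p ran from 0.000805 to 0.535.

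Ptgfr had 43.0, 40.8, 40.5 and 40.5 CPM in PT-2385 kidneys, against 32.9, 35.8, 39.6 and 39.1 CPM in vehicle kidneys (log2 fold change 0.18, interval 0.02 to 0.33, adjusted p = 0.107, edgeR). Ptger1 had 10.3 ± 0.286 CPM in PT-2385 kidneys and 8.73 ± 1.52 CPM in vehicle kidneys (0.26, adjusted p = 0.170, edgeR). Ptges2 had 39.9 ± 1.88 CPM in PT-2385 kidneys and 44.2 ± 2.34 CPM in vehicle kidneys (−0.13, adjusted p = 0.173, edgeR). For these 3 genes the groups did not overlap, yet none passed the test.

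The remaining kidney members overlapped between groups. Ptgs2, which in kidney is known from the macula densa and from interstitial cells, had 5.75, 6.08, 4.52 and 2.78 CPM in PT-2385 kidneys, against 9.26, 4.54, 4.95 and 5.24 CPM in vehicle kidneys. Its log2 fold change of −0.36 had an interval of −1.10 to 0.39. Vehicle replicate 1 was the high library. Summed thick limb and macula densa markers (Umod, Slc12a1 and Nos1) ran from 2823 to 3433 CPM in PT-2385 kidneys and from 3237 to 4117 CPM in vehicle kidneys. Of the 3 markers 1 was positive, none was called and none was at 0. The sum was highest in that same vehicle replicate 1. PT-2385 replicate 4 had the highest PT-2385 sum (3433) and the lowest Ptgs2 (2.78 CPM). Vehicle replicate 2 had a sum of 3729 CPM with the lowest vehicle Ptgs2 (4.54 CPM). The part of these markers in the Ptgs2 value was not tested. Ptgs1 (0.16), Ptges (0.13), Ptger4 (0.12), Ptger2 (0.11) and Ptger3 (−0.02) had edgeR adjusted p between 0.304 and 0.895. The interval of Ptger3, the leading kidney receptor, ran from −0.14 to 0.11. Signs of the 2 lowest changes were not stable: Ptger2 had −0.14 without vehicle replicate 1 and −0.0017 without vehicle replicate 2, and Ptger3 had 0.0029, 0.0032 and 0.011 without vehicle replicate 3, PT-2385 replicate 1 and PT-2385 replicate 2.

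Kidney cell markers are given beside Hpgd. Summed CPM of 4 proximal tubule genes ran from 18451 to 20339.8 in PT-2385 kidneys and from 19727 to 22031 in vehicle kidneys, with 1 of 4 positive and none called. Summed macrophage markers ran from 111 to 128 CPM in PT-2385 kidneys and from 134 to 146 CPM in vehicle kidneys, with 1 of 8 positive and 1 called lower. Summed smooth muscle markers ran from 250.2 to 297 CPM in PT-2385 kidneys and from 209 to 252 CPM in vehicle kidneys, with 4 of 5 positive and 2 called higher. Of all genes tested in kidney, 5.53% were called. No proximal tubule, macrophage or smooth muscle marker was at 0. In other lists, all endothelial (7), podocyte (3), adipocyte (3) and collecting duct (3) markers tested were positive, with none called. Of 3 luteal genes tested in kidney, 0 were positive and 1 was called lower. The part of cell makeup in the Hpgd value was not tested.

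**Figure D4:**
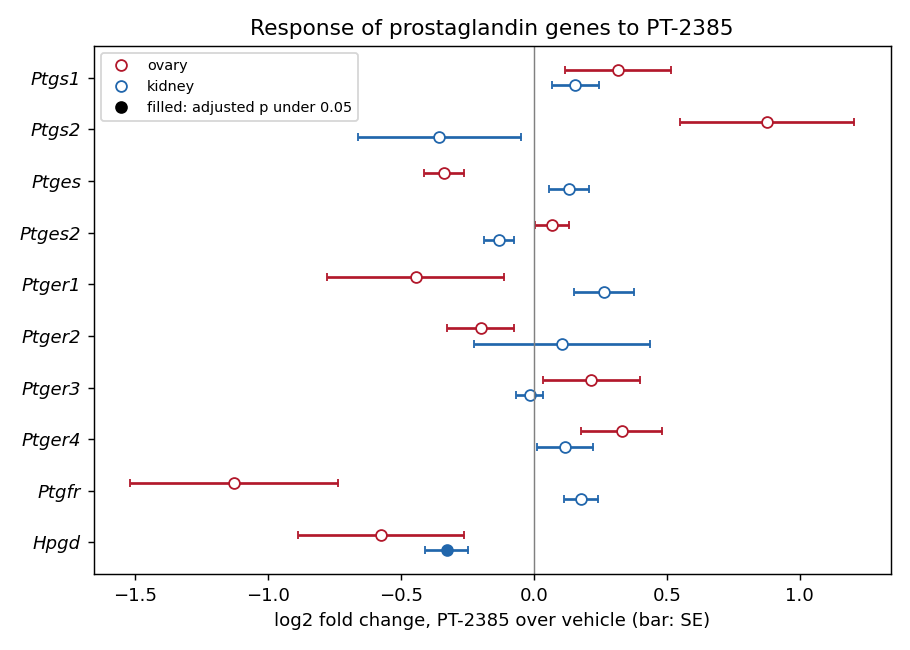
Log2 fold change of PT-2385 over vehicle for the 10 members in ovary and kidney, with SE from edgeR; filled points had an adjusted p under 0.05. Hpgd in kidney (−0.33) is the only filled point, and the ovary values spread from −1.13 (Ptgfr) to 0.88 (Ptgs2), wider than the kidney values.

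Whether the response differed between organs was tested as the ovary effect minus the kidney effect over all 16 libraries. None of the 10 members was called by edgeR, beside 0.19% of 19977 genes, and 4 had an unadjusted p under 0.05 (12% of all genes). DESeq2 called 1 (Ptges), beside 1.51% of all genes, and limma-voom called 0, beside 0.0601%. The differences were −0.45 for Ptges (SE 0.115, adjusted p = 0.107, edgeR), −1.28 for Ptgfr (SE 0.433, adjusted p = 0.269) and 1.26 for Ptgs2 (SE 0.538, adjusted p = 0.379). For Hpgd, called in kidney alone, the difference was −0.23 with an interval of −1.005 to 0.55, so its effects in the organs were not shown to differ. Without ovary vehicle replicate 3, Ptges, Ptgfr and Ptger1 passed (adjusted p of 0.0416, 0.0245 and 0.0464, edgeR), in a fit that called 813 genes, or 4% of those tested. The deposited file of that library carries the number 5 where the label gives replicate 3; it was kept in the group of its label.

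A list of 20 other pathway genes was read the same way: phospholipases, synthases and reductases of other prostaglandins, receptors, transporters and breakdown enzymes. Of these, 18 were tested in each comparison. Ptgdr and Ptgdr2, the prostaglandin D2 receptors, were too low, with at most 9 read pairs in any library. In PT-2385 ovaries edgeR, DESeq2 and limma-voom each called 0 of the 18 (0.0497%, 1.79% and 0.0221% of all genes), and 8 had an unadjusted p under 0.05, beside 13.2% of all genes. The 3 with the smallest p were Abcc4, an exporter of prostaglandins (log2 fold change −0.29), Ptges3, a co-chaperone with E synthase activity (0.25), and Ptgfrn, a partner protein of the F receptor (0.25), with edgeR adjusted p of 0.184, 0.269 and 0.297. Abcc4 had 24.4, 25.2, 23.4 and 27.1 CPM in PT-2385 ovaries, against 29.1, 32.6, 28.0 and 32.2 CPM in vehicle ovaries, without overlap. Of the 18 genes, 2 did not overlap between the ovary groups, both lower, beside 6.88% of all genes tested (3.76% lower). Without ovary vehicle replicate 3, 4 of the list were called, beside 5.9% of all genes, Abcc4 and Ptges3 among them (adjusted p = 0.029 and 0.0208, edgeR). Abcc4 passed also in one fit of all 16 libraries (0.0471).

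In kidney, 1 of the 18 was called by edgeR, that is 5.56% beside 5.53% of all genes, and 3 by DESeq2, beside 8.19% of all genes. The share called by edgeR was thus at the background. The called gene was Ptgr2, a reductase that acts on prostaglandin metabolites downstream of Hpgd. It had 48.7, 54.2, 52.4 and 57.6 CPM in PT-2385 kidneys, against 68.4, 69.4, 61.7 and 59.9 CPM in vehicle kidneys. All PT-2385 kidneys lay below all vehicle kidneys, and the log2 fold change was −0.27 (SE 0.0624, adjusted p = 0.0218, edgeR). Of its exon bases 47.2% are shared with Gm47484 on the opposite strand, and the call was lost without vehicle replicate 2 (adjusted p = 0.0836) and without PT-2385 replicate 1 (0.0678) or replicate 3 (0.089).

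Between organs in vehicle mice, 8 of the 18 were higher and 8 lower in ovary, that is 88.9% called beside 81.6% of all genes. The 4 with the smallest p were Akr1b7, an aldo-keto reductase with prostaglandin F synthase activity (log2 fold change 5.73, 27.2% of its exon bases shared with another gene on the opposite strand), Ptgfrn (3.49), Cbr1, a carbonyl reductase (−2.71), and Ptgis, the prostacyclin synthase (3.82). For the difference between the responses, edgeR and limma-voom called 0 of the 18 (0.19% and 0.0601% of all genes) and DESeq2 called 1, Ptgds (1.51% of all genes). At an unadjusted p under 0.05 there were 5, beside 12% of all genes. The 3 with the smallest p were Ptgfrn (0.40), Ptgds, a prostaglandin D synthase (−1.20), and Pla2g4a, the phospholipase that frees arachidonic acid (0.45). Their edgeR adjusted p were 0.192, 0.210 and 0.232, and 0.0396, 0.0143 and 0.0148 without ovary vehicle replicate 3.

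**Figure D5:**
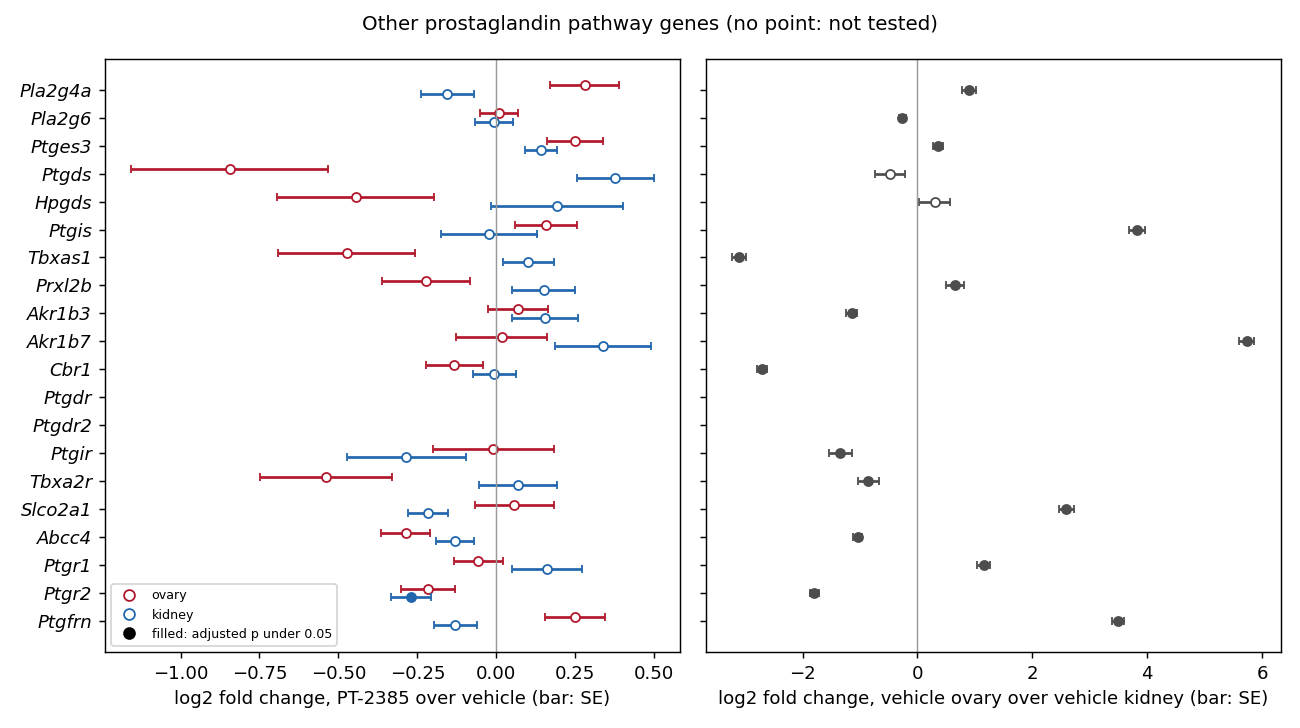
Log2 fold change and SE (edgeR) of the 20 other pathway genes: left, PT-2385 over vehicle in ovary and kidney; right, vehicle ovary over vehicle kidney. Filled points had an adjusted p under 0.05 and genes without a point were not tested; on the left only Ptgr2 in kidney (−0.27) is filled, on the right 16 genes are.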

How the data were processed

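The deposited values are counts of read pairs per gene, which the authors made with featureCounts 2.0.6 over exons of GENCODE vM27, per the file headers. Alignment used STAR to GRCm39, per the submitters' processing notes; its version is not given in the sources used here. Libraries were stranded polyA preparations, per the labels. Symbols were found for 52083 of 55359 identifiers (94.1%) in GENCODE M21. No column belonged to another sample, and no libraries were identical.

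Each comparison was fitted over all genes with the edgeR 4.0.16 quasi-likelihood test (robust; R 4.3.3 with limma 3.58.1), using TMM factors and the default filterByExpr limits (count 10, total 15), with Benjamini-Hochberg adjustment; genes were called under 0.05. Organs were fitted apart, with 6 residual degrees of freedom each and 12 in the fit of the response difference. SE come from the F statistic, and 95% intervals from that SE with the residual degrees of freedom alone. The test itself uses more degrees of freedom, because it shares the spread across genes. An interval can therefore include 0 where the unadjusted p is under 0.05. Ptger1 in kidney had an edgeR p of 0.0319 and an interval of −0.01 to 0.54. No member was too low to be tested, so the permutation test planned for such genes was not needed. Fold changes come from the fits, CPM and TPM from the counts. Alternatives were other scalings, DESeq2 1.42.0, limma-voom, other filters, a replicate block, leaving out single libraries and one fit of all 16.

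The members and lists were chosen with earlier results of these data known. Named were all members, called genes of the 20 other pathway genes or else the 3 with the smallest p (4 between organs), and the 5 nearest profiles of Ptgs2, Ptgfr and Hpgd with at least 2 CPM and a proper symbol. The fits were tested on simulated data. Figures used Python 3.11.15 and matplotlib 3.10.9.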

Additional observations from a re-analysis of the deposited data

Results flagged for a closer look

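A gap between the highest or lowest library and the nearest other library, relative to the range of the group, passed Dixon's critical value in 4 of 76 groups of 4 libraries; chance gives about 1 in 20. Ptgs1 in kidney PT-2385 replicate 2 was low at 26.1 CPM, where the other PT-2385 kidneys had 34.4 to 36.1 CPM; it is the shallowest library, with 12.7 M assigned pairs. Ptgfr in kidney PT-2385 replicate 1 was high at 43.0 CPM, beside 40.5 to 40.8 CPM. Ptgds in the same library was low at 9.57 CPM, beside 11.9 to 12.1 CPM. Ptgis in kidney vehicle replicate 4 was high at 6.71 CPM, beside 4.58 to 4.81 CPM in the other vehicle kidneys. None of these genes was called in kidney.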

How the results depend on the processing

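Of 905 log2 fold changes under the alternatives, 875 kept their direction and side of the threshold, 17 passed it anew, 8 fell short and 5 changed sign. The sign changes were those of Ptger2 in kidney (range −0.14 to 0.45 with 1 library left out, and fitted in 14 of 16 settings) and Ptger3 in kidney (−0.0397 to 0.0110). Between organs, the same 8 members were called in each of 16 settings. In ovary, 9 genes were called, against 324 with DESeq2, 4 with limma-voom, 330 without a filter, 363 in one fit of all 16 libraries and 0 to 1090 with 1 library left out (without vehicle replicates 1 to 4: 0, 57, 1090 and 0; without PT-2385 replicates 1 to 4: 1, 0, 0 and 60). In kidney, 982 were called, against 1761 without a filter, 342 in one fit of all 16 and 240 to 1370 with 1 left out (269 without vehicle replicate 2, 531, 240 and 287 without PT-2385 replicates 1, 3 and 4). For the response difference, 38 were called, against 20 with median-ratio scaling, 301 with DESeq2, 12 with limma-voom, 167 without a filter and 0 to 813 with 1 left out; 813 was reached without ovary vehicle replicate 3, and the other 15 omissions gave 0 to 45. The causes were not tested.

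Same-numbered ovary libraries with PT-2385 and vehicle correlated at −0.0372, 0.299, 0.352 and −0.256, so the numbers showed no steady pairing of them. Same-numbered ovary and kidney libraries correlated at 0.0652, 0.0821, −0.00184 and 0.0565 with vehicle, and at 0.051, 0.0602, −0.0344 and 0.0823 with PT-2385. Whether both organs came from the same mice is not stated in the labels, and the main fits treated all libraries as independent. A replicate block gave 395 calls in ovary, Ptges among them (adjusted p = 0.0362, edgeR). Ptger2 in kidney (8 to 33 read pairs) and Ptger1 in ovary (14 to 59) are limited by depth.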

Other observations

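The thromboxane and prostacyclin branches were looked at after their values had been seen. Tbxas1, the thromboxane synthase, had 1.37, 1.43, 0.789 and 1.20 CPM in PT-2385 ovaries, against 1.59, 1.92, 1.64 and 1.44 CPM in vehicle ovaries. The groups did not overlap, beside 6.88% of all genes tested (3.76% lower). The difference rested on 21 to 64 read pairs per library and did not pass the test (log2 fold change −0.47, adjusted p = 0.378, edgeR). Tbxa2r, the thromboxane receptor, averaged 2.58 ± 0.504 CPM in PT-2385 ovaries and 3.77 ± 1.07 CPM in vehicle ovaries (log2 fold change −0.54, adjusted p = 0.310, edgeR). In kidney both had values near 0 (0.10 and 0.07). Ptgis, the prostacyclin synthase, averaged 81.9 ± 8.46 CPM in PT-2385 ovaries and 73.2 ± 10.1 CPM in vehicle ovaries (0.16), while its receptor Ptgir averaged 1.43 ± 0.224 and 1.44 ± 0.163 CPM.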
